A study of Cervus nippon with 40 samples.

Results

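The miR-199 and miR-214 cluster was followed through 10 organs of Sika Deer. Its members were found by name: every listed name that starts with miR-199, and miR-3604, miR-214 and miR-3120, all annotated by their cattle (bta) names. This gave 7 of the 500 names in the series, of which 337 are known miRNAs and the rest are numbered predictions. miR-3604 held almost the same reads as miR-199a-3p (1129450 against 1129766 reads in sum). The 2 names were equal in 5 of 40 libraries and differed by at most 69 reads, or 0.0653%, in the others. They were therefore counted once as a member and in shares of reads, and 6 members remained. miR-199b had 1 read in juvenile skeletal muscle and 1 in aged kidney and could not be examined further. The other 5 members, bta-miR-199a-3p, bta-miR-199a-5p, bta-miR-199c, bta-miR-214 and bta-miR-3120, named below without the prefix, were listed in 40 of 40 libraries, and all 5 passed the minimum of 10 reads in 4 libraries.

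A miRNA gene is transcribed as a hairpin, and the short RNAs cut from its arms (5p and 3p) lower the output of matching mRNAs. In mammals a miR-199a gene and miR-214 lie on a shared transcript that runs antisense within a dynamin gene. miR-3120 is read from the strand opposite to miR-214. The transcript is known from mesenchymal cells, the precursors of bone, cartilage and connective tissue, and antler is a bony organ that regrows from such cells. miR-199c is a further name of the miR-199 family, and reads of near-identical family members may be divided differently between names by another way of counting. Whether the reads of the miR-199a arms came from this transcript alone was not examined.

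Small RNA libraries were made from adrenal, antler, brain, heart, kidney, liver, lung, skeletal muscle, spleen and testes of male deer of the Shuangyang breed. Each organ gave 1 library at each of 4 stages, namely juvenile deer of 1 year, adolescent deer of 3 years, adult deer of 5 years and aged deer of 10 years. Each library pooled RNA of 3 deer, and the 10 organs of a stage came from the same 3 of 12 deer. An organ therefore has n = 4 stages and no repeat library of the same stage. Every SD of an organ measures the spread between pools of deer of different ages. The model tests take their error from the spread left after terms for organ and for stage or age group. The main permutation tests move labels within stages. No p value here measures the spread between deer of the same age.

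The values are RPM, the reads of a miRNA per 1000000 miRNA reads of the library, and whole reads could be recovered from them. The library totals hold the reads of every listed name, with miR-3604 beside miR-199a-3p and other second names kept. In juvenile antler 52460 of the 214726 miRNA reads were listed as miR-3604. The reads of miR-3604 thus lower RPM, and they do so most in antler. Libraries held 41866 to 7759033 miRNA reads (median 744715). The fewest reads behind a member were 178 for miR-199a-3p, 61 for miR-199a-5p and 5 for miR-199c, each in adolescent brain, 24 for miR-214 in juvenile brain and 7 for miR-3120 in adolescent brain. The antler tables carry 32 known names that the other organs lack, with 857 reads in sum. Whether antler was named in a separate run is not known, and such a run could not be told apart from the organ itself. All 5 members were listed in antler under the same names as elsewhere. Of the marker miRNAs of other tissues, the heart muscle, nerve, testis and epithelium lists summed to 0 in all antler libraries, resting on the 3 of 3, 2 of 4, 2 of 4 and 2 of 5 markers listed anywhere in the series. The skeletal and heart muscle list (3 of 4 markers listed in antler) summed to 3809 to 10623 RPM there, the blood cell list (5 of 7) to 1630 to 3843 RPM, and the liver cell list (miR-192, 1 of 2) to 2707 to 3908 RPM. The cartilage list (2 of 3) summed to 69.7 to 691 RPM, nearly all of it miR-140, while miR-455-3p had 0 to 1.48 RPM. The part of other cell types in the results below was not tested.

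Antler stood above all other organs. The members together took 60.4% of all miRNA reads in juvenile antler, 57.7% in adolescence, 68.7% in adult and 50.8% in aged antler, a mean of 59.4% ± 7.38 (SD, n = 4). Testes came next with 17.4% ± 8.42, from 10.4% in adult to 29.0% in juvenile testes. Liver held 8.57%, kidney 7.33%, adrenal 5.31%, spleen 4.43% and lung 4.27%, while heart (0.803%), skeletal muscle (0.206%) and brain (0.181%) lay below 1%. The muscle-specific miR-1 fills most of the reads of skeletal muscle, and with miR-1 left out of the total the share there was 2.57% and that of heart 1.94%.

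**Figure D1:**
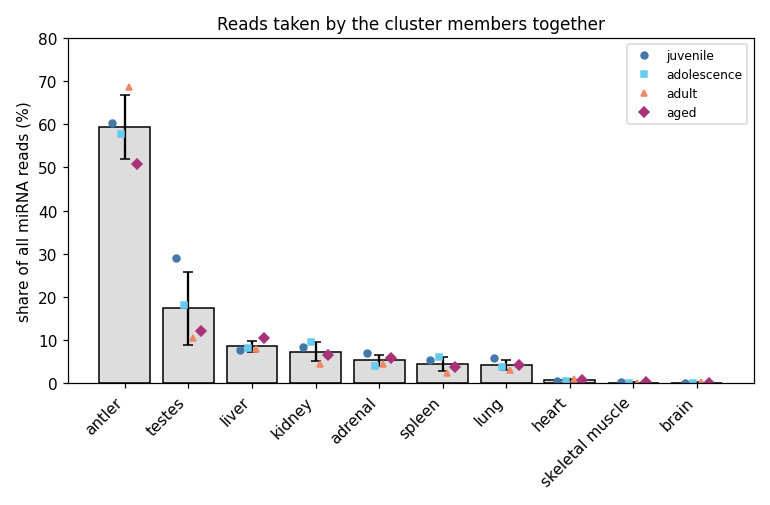
Share of all miRNA reads (%, y axis) taken by the 5 listed members in each organ (x axis), with miR-3604 counted once. Bars show the mean of 4 stages, error bars the SD and symbols the single libraries. The antler libraries lie between 50.8% and 68.7% and the highest other library, juvenile testes, at 29.0%.

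The most abundant member was miR-199a-3p, the 3p arm. Antler had 244470 RPM in juvenile, 228067 in adolescence, 287926 in adult and 251984 in aged deer. The other 36 libraries ran from 483 RPM in adolescent brain over a median of 28392 to 154476 in juvenile testes. All antler libraries thus lay above all others, by 1.48 times at the closest.

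miR-199a-5p, from the other arm of the hairpin, had 182055, 176504, 182587 and 112482 RPM in juvenile, adolescent, adult and aged antler. Elsewhere it ranged from 166 RPM in adolescent brain to 80193 in juvenile testes, with a median of 12298. The aged antler was the lowest of its organ but still 1.40 times the highest library of another organ.

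miR-199c had 11950 RPM in juvenile antler, 22459 in adolescence, 8805 in adult and 4967 in aged antler, a wider spread than that of the miR-199a arms. In the other organs it ranged from 10.2 RPM in adult skeletal muscle to 6153 in juvenile testes (median 672). The groups overlapped here, since juvenile testes lay above aged antler. The other 35 libraries were below the lowest antler value.

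miR-214 measured 15075, 16469, 8220 and 7088 RPM in juvenile, adolescent, adult and aged antler, so both younger libraries were higher than both older ones. The other libraries ranged from 18.3 RPM in adult skeletal muscle to 6043 in aged testes (median 1344). The groups did not overlap, at 1.17 times between aged antler and aged testes.

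miR-3120, from the strand opposite to miR-214, was the scarcest, with 2655, 2311, 1613 and 3670 RPM from juvenile to aged antler. Its other libraries ranged from 3.85 RPM in adult skeletal muscle to 1147 in aged testes (median 333). The lowest antler value was 1.41 times the highest value elsewhere. Of all reads of a member in the series, the 4 antler libraries held 42.3% for miR-199a-3p, 51.0% for miR-199a-5p, 47.5% for miR-199c, 27.3% for miR-214 and 41.8% for miR-3120. In bulk tissue, a larger number of cells with these miRNAs and more of the RNA per cell cannot be told apart.

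**Figure D2:**
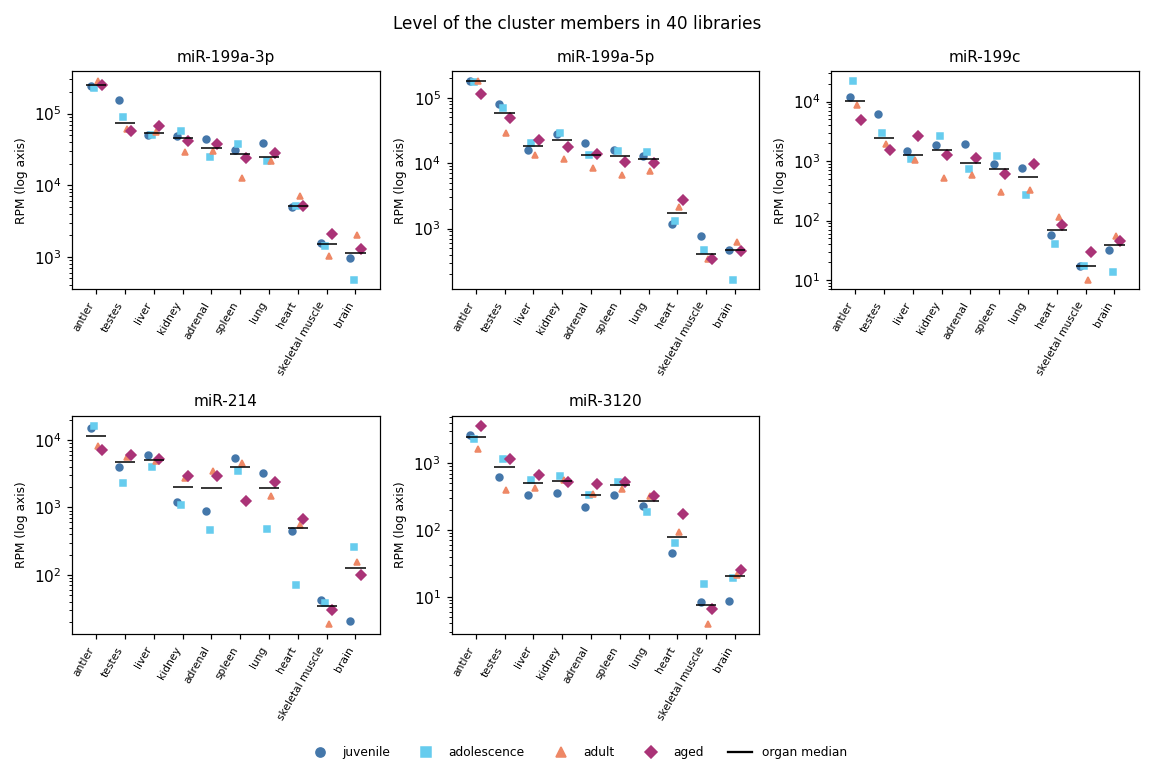
RPM of the 5 members (log axis, 1 panel each) in 10 organs, with a symbol per stage and a line at the organ median. Antler lies highest in every panel, overlapped only in the miR-199c panel, where juvenile testes (6153 RPM) is above aged antler (4967 RPM).

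To compare organs, limma was fitted to log2(RPM + 1) of 124 known miRNAs after TMM scaling, which levels libraries on the bulk of their miRNAs. Second names such as miR-3604 are among the 124. A call needed a Benjamini-Hochberg adjusted p under 0.01 together with a log2 difference over 1 in size. In antler all 5 members were called higher than in the mean of the other 9 organs, where 15.3% of the tested miRNAs were called higher. The log2 difference was 4.79 (SE 0.39, adjusted p = 8.23e-13) for miR-199c and 4.63 (SE 0.33, adjusted p = 4.78e-14) for miR-199a-5p. It was 3.96 (adjusted p = 3.32e-12) for miR-199a-3p, 3.78 (adjusted p = 3.32e-12) for miR-3120 and 3.55 (adjusted p = 1.41e-07) for miR-214. Among the 124 miRNAs the members took ranks 1, 2, 4, 6 and 7 of the antler difference, beside their second name miR-3604. The highest miRNA outside the cluster was miR-2285l (4.16), and the median over all tested miRNAs was -0.30. Since antler reads are mostly reads of the cluster, RPM of all other miRNAs in antler are lowered by construction. Under scaling to total reads instead, the antler differences of the members ranged from 3.66 to 4.91 and all 5 were called.

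Brain was the lowest organ for all 5 members after TMM scaling, whereas in RPM skeletal muscle had lower means of miR-199c, miR-214 and miR-3120. In brain miR-199a-3p had 961, 483, 2022 and 1299 RPM and miR-199a-5p had 467, 166, 631 and 456 RPM from juvenile to aged brain. miR-199c lay between 13.6 and 55.1 RPM, miR-214 between 20.7 and 258 RPM and miR-3120 between 8.62 and 24.9 RPM. All 5 members were called lower in brain than in the other organs, where 21% of the tested miRNAs were called lower. The log2 differences were -4.94 for miR-199a-5p, -4.74 for miR-199a-3p, -4.33 for miR-199c, -3.98 for miR-3120 and -3.95 for miR-214, with adjusted p values up to 9.46e-09 in limma. The values of miR-3120 in brain rest on 7 to 23 reads, and the 95% counting interval at 7 reads, 7.64 to 39.1 RPM, covers the values of the other brain libraries.

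Heart also lay low. miR-199a-5p had 1165 RPM in juvenile, 1296 in adolescent, 2115 in adult and 2693 in aged heart, and miR-199c had 57.3, 40.2, 116 and 82.9 RPM. Of 5 members, 2 were called lower in heart, where 14.5% of the tested miRNAs were called lower: miR-199a-5p by a log2 difference of -1.48 (SE 0.33, adjusted p = 0.000395) and miR-199c by -2.08 (SE 0.39, adjusted p = 4.38e-05). miR-199a-3p stood at -1.01 with adjusted p = 0.0178 in limma, outside the limit. Both calls rest on the juvenile libraries: without that stage the differences were -0.77 (adjusted p = 0.119) and -1.46 (adjusted p = 0.0119).

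In testes, 1 member was called higher, with 4.84% of all tested miRNAs. This was miR-199a-5p, at a log2 difference of 1.32 (SE 0.33, adjusted p = 0.00207 in limma). miR-199c stood at 1.12 (adjusted p = 0.0246) and miR-199a-3p at 0.65 (adjusted p = 0.142). The juvenile testes library was the highest of its organ for miR-199a-3p, miR-199a-5p and miR-199c, whereas miR-214 was highest in the aged testes. miR-3120 had 1147 RPM in aged and 1145 RPM in adolescent testes, on 48 and 77 reads. The adolescent, adult and aged testes libraries are the 3 shallowest of the series, with 67231, 97018 and 41866 reads.

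**Figure D3:**
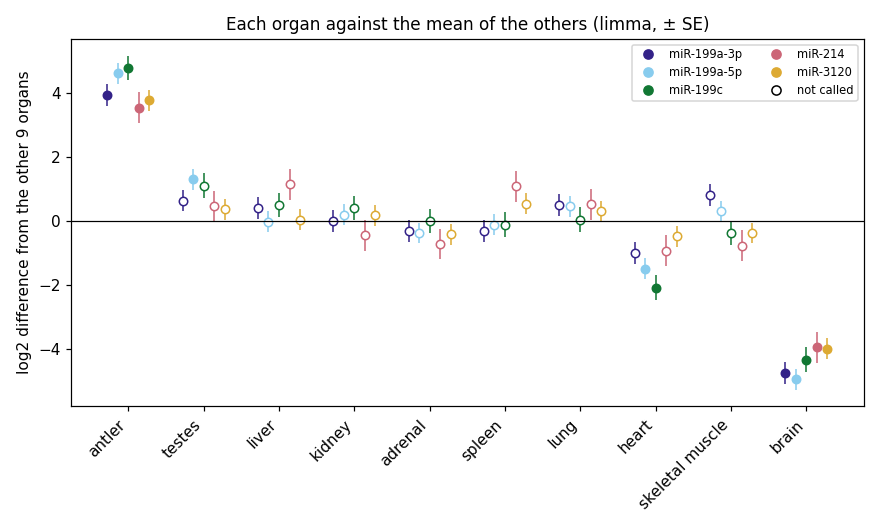
log2 difference of each member (colour) between an organ (x axis) and the mean of the other 9 organs, from limma after TMM scaling, with SE bars. Filled symbols are called and open ones are not. Antler lies between 3.55 and 4.79, brain between -4.94 and -3.95, and the other organs between -2.08 and 1.32.

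In liver, kidney, adrenal, spleen, lung and skeletal muscle no member was called in limma. Over these 30 pairs of member and organ, an unadjusted p below 0.05 was met by miR-214 in liver (1.15, adjusted p = 0.0494), miR-214 in spleen (1.09, adjusted p = 0.14) and miR-199a-3p in skeletal muscle (0.82, adjusted p = 0.0486). Of the tested miRNAs, 37.1% were called in skeletal muscle, 21% in liver, 16.1% in kidney, 13.7% in adrenal, 12.9% in lung and 4.84% in spleen. These results turned with the scaling. Under total reads all 5 members were called higher in liver (1.23 to 2.39), 4 in kidney (1.24 to 1.63) and miR-3120 in spleen (1.15), where 35.5%, 33.9% and 9.68% of the tested miRNAs were called higher. In skeletal muscle miR-199a-3p and miR-199a-5p changed direction. In RPM its libraries were among the lowest, with 1578, 1430, 1022 and 2060 RPM of miR-199a-3p, and under scaling to total reads miR-199a-3p stood at -4.16 and all 5 members were called lower, along with 82.3% of all tested miRNAs. The median log2 difference of all tested miRNAs in skeletal muscle was -3.61 under total reads and -0.01 after TMM scaling, under which miR-199a-3p stood at 0.82.

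The order of organs after TMM scaling showed where neighbours differ. For miR-199a-3p it was antler, skeletal muscle, testes, lung, liver, kidney, spleen, adrenal, heart and brain. The step from antler to skeletal muscle was 2.82 (SE 0.46, adjusted p = 3.15e-06) and the step from heart to brain 3.36 (adjusted p = 1.08e-07), both by limma. The 7 steps between them were 0.63 or less, and none was called. miR-199a-5p followed with testes, lung, skeletal muscle, kidney, liver, spleen, adrenal and heart between antler and brain, and again only the first step (2.98) and the last (3.12) were called. For miR-199c the second organ was testes, for miR-214 liver and for miR-3120 spleen, with first steps of 3.31, 2.16 and 2.91. The last step, from heart to brain, was 2.02 for miR-199c, 2.73 for miR-214 and 3.16 for miR-3120, and it was called for each.

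Over all 45 pairs of organs, antler was called higher than each of the other 9 organs for all 5 members. In these 9 pairs 28.6% of the tests over all miRNAs were called in either direction. The smallest of these differences was that of miR-214 from liver, 2.16 (SE 0.64, adjusted p = 0.00723 in limma). Brain was called lower than each of the other 9 organs for all 5 members, in pairs with 34.3% of tests called. Of the 28 pairs among the other 8 organs, miR-199a-3p was called in 1, miR-199a-5p in 5 and miR-199c in 6, against 18.4% of all tests in these pairs. Heart was on the low side of 11 of these 12 calls, for example by 2.52 against testes for miR-199a-5p. How often heart was on the low side over the calls of all miRNAs was not counted. The median log2 difference of all tested miRNAs from the other organs was -0.47 in heart and -0.46 in testes. miR-214 and miR-3120 were called in 0 of these 28 pairs.

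The arms and members were then set against each other within a library, where scaling does not enter. These are ratios of reads, which need not equal ratios of molecules. Comparing them between libraries takes reads to stand for molecules in the same way in each library, which was not tested. In antler the reads of miR-199a-5p were 74.5% of those of miR-199a-3p in juvenile, 77.4% in adolescence, 63.4% in adult and 44.6% in aged deer. Testes had 46.9% to 84.7% (median 65.4%), and the other organs had medians from 27.5% in heart to 47.4% in spleen. The antler values overlapped those of other organs, whose 36 libraries ran from 16.5% to 84.7%. The mean log2 ratio was 0.67 higher in antler, with p = 0.0141 by a two-sided exact permutation test over 10000 arrangements of the antler label within stages, and p = 0.0564 after adjustment over the 4 ratios examined. Shares of variation between organs, here and for the ratios below, are of the variation left after stage means were taken out. The 10 organs together held 56.7% of the variation of this ratio (adjusted p = 0.00616, 100000 permutations of organs within stages). That adjusted p was 0.0652 without the adolescent libraries and 0.107 without the adult libraries.

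The reads of miR-199c were 4.89%, 9.85%, 3.06% and 1.97% of those of miR-199a-3p from juvenile to aged antler. The other libraries ran from 0.783% in adolescent heart to 4.57% in adolescent kidney. Only juvenile and adolescent antler lay above that range. The antler mean was 0.84 higher on the log2 scale (exact permutation p = 0.0334, adjusted p = 0.0668), and without the adolescent libraries the difference was 0.39. Between the 10 organs the ratio held 67.6% of its variation, with p = 1e-05, the smallest that 100000 permutations can give, and adjusted p = 4e-05. The organ medians were lowest in skeletal muscle (1.13%), heart (1.39%) and lung (1.75%).

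The ratio of miR-214 to miR-199a-5p moved more within organs than between them. In antler miR-214 had 8.28%, 9.33%, 4.5% and 6.30% of the reads of miR-199a-5p. In adrenal the share ran from 3.51% in adolescence to 40.6% in adult deer, in lung from 3.24% to 25.5%, and in brain from 4.43% in juvenile to 156% in adolescence, where 95 reads of miR-214 stood against 61 of miR-199a-5p. Liver was steadier at 20.1% to 37.0%. The organs held 38.9% of the variation (adjusted p = 0.121 by permutation), and the antler mean was -1.08 from that of the other organs (exact permutation adjusted p = 0.165).

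miR-3120 had 17.6%, 14.03%, 19.6% and 51.8% of the reads of miR-214 from juvenile to aged antler. In the other organs it ranged from 5.61% in juvenile liver to 91.7% in adolescent heart. The antler difference was 0.24 (exact permutation adjusted p = 0.634), and the organs held 26.8% of the variation (adjusted p = 0.397 by permutation). Neither ratio with miR-214 passed 0.05 for a difference between organs.

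**Figure D4:**
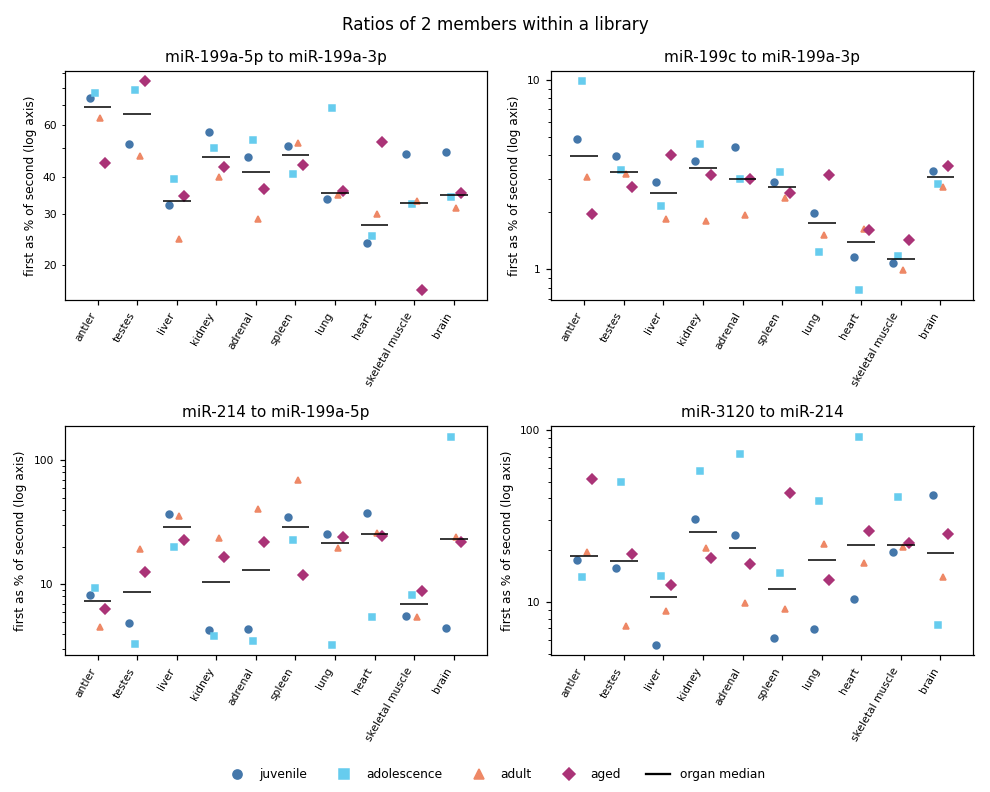
Reads of 1 member as a percent of those of another (log axis) in 10 organs, with a symbol per stage and a line at the organ median. The miR-199a-5p and miR-199c panels show organs at different heights, while in the panels with miR-214 the stages of an organ spread widely, as in adrenal from 3.51% to 40.6%.

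How the members moved together was described by Pearson's r on log2 values after TMM scaling. Over the 10 organ means all 10 pairs of members had r from 0.92 to 0.99, and antler and brain lie at the ends of each. Within organs, over the deviations of 40 libraries from their organ mean, miR-199a-5p followed miR-199a-3p (r = 0.80), as did miR-199c (r = 0.77). miR-214 did not follow them, with r = -0.07 to miR-199a-3p and -0.23 to miR-199a-5p, and miR-3120 stood at 0.34 and 0.36. Between miR-3120 and miR-214, from opposite strands of a locus, r was 0.22. The points share libraries, scaling and the deer of a stage.

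**Figure D5:**
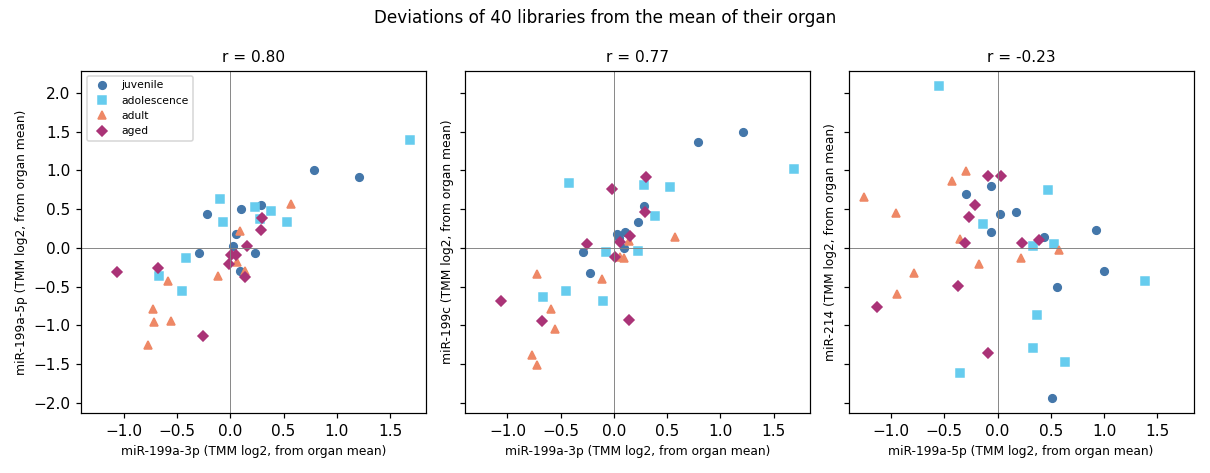
Deviation of 40 libraries from the mean of their organ (log2 after TMM scaling) for 3 pairs of members, with a symbol per stage and Pearson's r above each panel. The 2 miR-199a arms and miR-199c move along a line (r = 0.80 and 0.77), and miR-214 against miR-199a-5p gives a cloud (r = -0.23).

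The deviations of the ratio of miR-214 to miR-199a-5p were also set against those of miRNAs outside the cluster, second names included. Of 118 such miRNAs, 32 had an r beyond 0.7 in size over the 40 libraries. The highest were miR-1343-3p (0.81), miR-574 (0.80) and miR-2898 (0.78), and the lowest miR-374a (-0.89), miR-192 (-0.88) and miR-135a (-0.84). For the ratio of miR-3120 to miR-214, 13 of the 118 went beyond 0.7. There the signs were turned for miR-374a (0.82), miR-135a (0.81), miR-574 (-0.75) and miR-1343-3p (-0.74). Both comparisons were chosen after the values were seen, and the points share libraries. The part of base composition in them was not tested.

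Stages were compared over all organs with the organ in the limma model. Of 5 members 0 were called at an adjusted p below 0.01, against 4.84% of the tested miRNAs. An unadjusted p below 0.05 was met by 37.1% of the tested miRNAs and by 3 of 5 members: miR-3120 (adjusted p = 0.0714), miR-199a-5p (adjusted p = 0.0852) and miR-199c (adjusted p = 0.125). The edgeR test on recovered reads called 0 members and 8.06% of miRNAs. DESeq2 on these reads called 25.8% of miRNAs, among them miR-3120 (adjusted p = 0.000916) and miR-199a-5p (adjusted p = 0.00321). A stage is a group of 3 deer in all its organs, so stage and deer cannot be told apart. The p values of these stage tests count organs of the same deer as separate and do not cover the spread between pools of deer.

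The study sets adult and aged against juvenile and adolescent libraries in heart, kidney and adrenal, organs it chose on these samples. miR-214 had 897 and 460 RPM in juvenile and adolescent adrenal against 3463 and 2982 in adult and aged adrenal. Kidney had 1202 and 1103 against 2763 and 2956 RPM, and heart 441 and 70.3 against 554 and 664 RPM. In RPM both older libraries lay above both younger ones in each of these organs and in testes, below them in antler and skeletal muscle, and overlapped with them in the other 4 organs. After TMM scaling the order held in kidney and adrenal but not in heart, where the juvenile library (10.6 on the log2 scale) was above the adult (10.2) and the aged library (10.2). The other members were apart in RPM about as often. Their older and younger libraries overlapped in 4 organs for miR-199a-3p, miR-199a-5p and miR-199c each, and in 5 for miR-3120. Such orders were not counted over all miRNAs.

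In the limma fit of these 3 organs miR-214 was higher in adult and aged libraries by 1.5 (SE 0.37, adjusted p = 0.0036), and it was the only member called, where 20.8% of 106 tested miRNAs were called higher and 12.3% lower. This fit and those of the other organs below count organs of the same deer as separate. Their SE and p values therefore do not cover the spread between pools of deer. By organ the difference of miR-214 was 2.18 in adrenal, 1.64 in kidney and 0.68 in heart, and in heart it was -0.27 with the TMM scaling taken over all 10 organs. The other members stood between -0.63 for miR-199c (adjusted p = 0.14) and 0.37 for miR-3120 (adjusted p = 0.349). An unadjusted p below 0.05 in limma was met by 55 of the 106 miRNAs and by 1 of 5 members. The call was lost with library GC content added to the model (1.24, adjusted p = 0.144), without kidney (1.15, adjusted p = 0.064), without adrenal (1.004, adjusted p = 0.111), and without the adolescent (0.99, adjusted p = 0.0709), adult (1.44, adjusted p = 0.0453) or aged (1.62, adjusted p = 0.0365) libraries. In the other 7 organs 0 of 5 members and 0% of 112 miRNAs were called, miR-214 stood at -0.09, and 21 miRNAs had an unadjusted p below 0.05. The difference between both sets of organs was 0.96 for miR-214 (adjusted p = 0.236), and 0 of 124 miRNAs were called for it, with 32 at an unadjusted p below 0.05.

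The 5 tested names outside the cluster whose 10 organ means were most like those of miR-199a-3p were miR-152 (r = 0.92) with its second name miR-2957 (the same reads), miR-2285f (0.75), miR-142-5p (0.73) and miR-452 (0.64). All were far scarcer in antler. miR-152 had 47.4 to 168 RPM there, miR-2285f 60.7 to 97.8, miR-142-5p, known from blood cells, 98.1 to 144, and miR-452 7.41 to 46.6 RPM. In antler miR-152 (2.47) and miR-452 (2.28) were called higher, both at adjusted p = 0.000361 in limma, and miR-142-5p (2.52, adjusted p = 0.0251) and miR-2285f (1.84, adjusted p = 0.0617) were not.

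Of 17 other miRNAs linked to mesenchymal tissues, 14 were listed in the series and 7 were tested. In antler 4 of the 7 were called higher and 1 lower (15.3% and 22.6% of all tested miRNAs), with a median log2 difference of 2.16 beside -0.30 for all tested miRNAs, and the cluster members had a median of 3.96. The largest differences were those of miR-29a, a regulator of collagen genes, which was lower (-3.18, adjusted p = 9.12e-06), and of miR-140 of cartilage (2.57, adjusted p = 2.96e-07), miR-424-5p (2.52, adjusted p = 0.00346) and miR-152 (2.47, adjusted p = 0.000361), which were higher by limma. The smooth muscle miR-145 stood at -0.70 (adjusted p = 0.0485), outside the limit.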

How the data were processed

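The authors trimmed adapters, dropped short reads and other RNA classes, and assigned reads to miRBase 22.0 and to predictions of miRDeep 2.0.5 (versions per the methods of the study). They deposited RPM values (header: tpm) per library for miRNAs with at least 1 read. Reads were recovered from the value of 1 read, and 7982 of 7982 values were whole to within 0.01. Known names listed outside antler entered the models, and miR-148c of antler was counted as miR-2957. limma 3.58.1 with a variance trend (R 4.3.3) was fitted to log2(RPM + 1) after TMM scaling (edgeR 4.0.16), with organ and stage as terms, over 124 miRNAs that reached 10 reads in 4 or more libraries. Adding 1 understates folds of scarce miRNAs. Ratios used recovered reads with 0.5 added and permutations within stages (numpy 2.4.6, scipy 1.17.1). Intervals of counts are exact Poisson at 95% and cover counting error only. Libraries of a stage share a number and the same deer. Deviations from organ means correlated at 0.14 on average between organs of a stage and at -0.05 between stages. Alternatives were other scalings, edgeR and DESeq2 1.42.0 on recovered reads, another pseudocount, no minimum, merged names, and left-out libraries or organs. The GC covariate, from the study's library statistics, and leaving out testes were added after the data were seen. Members and lists were chosen with earlier results of these data known. By rule, all members are named, with the 5 miRNAs most like miR-199a-3p over organ means and the 4 largest antler differences of the mesenchymal list. Beyond the rule, miR-145 and miR-450b of that list are named. The mature sequences were not used here.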

Additional observations from a re-analysis of the deposited data

Results flagged for a closer look

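Among 90 groups of 4 libraries of an organ, 5 had a library far from the other 3 by Dixon's criterion, about as many as chance gives, since it flags about 1 in 20 groups. miR-199a-5p in aged antler, at 112482 RPM, lay below the other antler libraries. miR-199a-3p in adult heart, at 7100 RPM, lay above the other hearts. In adolescent lung the log2 ratio of miR-199a-5p to miR-199a-3p was the highest of its organ at -0.55, and the log2 ratio of miR-214 to miR-199a-5p the lowest at -4.94. In adolescent skeletal muscle the log2 ratio of miR-3120 to miR-214 was the highest of its organ at -1.29.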

How the results depend on the processing

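All 5 members were called higher in antler and lower in brain under all 20 alternatives. Without the stage as replicate block, 5, 5, 2 and 1 members were called in antler, brain, heart and testes and 0 in the other 6 organs, as with it, and the ratio of miR-199a-5p to miR-199a-3p in antler passed 0.05 (0.67, adjusted p = 0.0478). The block changed no other call of a member or a ratio, and all calls in antler were 40 without it against 47. With total reads, 5 members were called lower in heart (44.4% of all miRNAs), 5 higher in testes (33.1%) and 15 times in the other 6 organs, as 5 higher in liver, 4 in kidney and 1 in spleen and 5 lower in skeletal muscle. In testes 3 were called with DESeq2 and 2 with DESeq2 size factors, edgeR, merged names, no minimum or without miR-1. In the other 6 organs 1 was called with the GC covariate, merged names or no minimum, and 2 without miR-1. Leaving out a stage gave 0 to 3 calls in heart, 1 to 3 in testes, 0 to 1 in the other 6 organs and 26 to 37 of all miRNAs in antler, and leaving out 1 antler library gave 30 to 41. The share of antler calls that were higher was 40.4%, 60% with edgeR, 59.5% with DESeq2 and 28.9% with merged names. Over stages DESeq2 called 2 members. miR-214 in heart, kidney and adrenal was not called (0 members) with DESeq2 (1.13, adjusted p = 0.0116), its size factors (1.23, adjusted p = 0.0102), the GC covariate (1.24), kidney left out (1.15) or adrenal left out (1.004), and left-out stages gave 0.99 to 2.05 and 0 to 1 members. For the antler ratio of miR-199a-5p to miR-199a-3p, medians (0.79, adjusted p = 0.0384) and no testes (0.75, adjusted p = 0.0122) passed 0.05, and left-out stages gave 0.60 to 0.83. For miR-199c to miR-199a-3p, no testes (0.90, adjusted p = 0.0497) passed it, and left-out stages gave 0.39 to 1.26. miR-3120 to miR-214 turned to -0.13 without the aged libraries (range -0.13 to 0.73). Between organs, the variation of miR-199a-5p to miR-199a-3p was 55.5% to 73.1% with a stage left out. With miR-3604 counted apart the antler share was 69.6%. The causes of these changes were not tested. With 41866 reads in the smallest library, 1 read is 23.9 RPM, which limits miR-199c and miR-3120 most.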
